A study of Mus musculus with 12 samples.

Results

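The comparison described here sets MLL::AF9 bone marrow cells that received a retrovirus expressing sPrdm16 against MLL::AF9 cells that received mock treatment, across all genes. It used 6 of the 12 libraries of the study, 3 per group. The members were taken by gene class and chromosome: of the 55487 genes of the table, 21923 were protein-coding genes outside the mitochondrial genome, called nuclear protein-coding genes here, and these come first in every count. Of them 11359 passed the filter on low counts and were tested, and 6582 had no count in any of the 6 libraries. Both groups were mouse bone marrow cells that MLL::AF9 had been brought into by retrovirus, and both were grown in RPMI1640 medium with 10% fetal bovine serum and 5 ng/ml mouse IL-3. The sPrdm16 group also carried a retroviral vector expressing sPrdm16, and the mock group is labelled as mock. Normal marrow cells, labelled WT, with sPrdm16 or mock enter below for 4 genes only, the markers of the comparison. The study asks how sPrdm16 drives chemoresistance. The labels do not say whether the 3 libraries of a group are separate cultures or animals, so a p-value here reflects only the spread between libraries, which may be technical. Expression came from viral vectors, and the labels do not say whether cells were pooled or cloned. In bulk libraries such as these, fewer cells of a type and less RNA per cell cannot be told apart.

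MLL::AF9 joins the chromatin regulator MLL to AF9, a subunit of a transcription elongation complex, and keeps genes of the Hoxa cluster and Meis1 active in blood progenitors, which then grow as acute myeloid leukaemia. Prdm16 belongs to the PRDM family of zinc-finger proteins, which bind DNA and recruit corepressors and histone-modifying enzymes. It is known for keeping blood stem cells and for directing brown fat identity, and the gene is known to give a long protein with a PR domain and a short one without it. The labels do not spell out what sPrdm16 stands for.

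Counts were divided unlike among classes of RNA in the 2 groups. Library totals were 25786649, 37390945 and 22340098 counts with sPrdm16, against 21659323, 23095420 and 21057167 with mock. Structural RNA (ribosomal, small nuclear, small nucleolar and the like) took 18.6%, 18.8% and 18.6% of the counts with sPrdm16, against 59.1%, 60.6% and 74.2% with mock. Nuclear protein-coding genes were left with 19473372, 28169209 and 16905133 counts with sPrdm16, against 7400875, 7406093 and 3844558 with mock. Levels in mock, above all in mock replicate 3, therefore rest on fewer counts. The median replicate SD over the mean was 0.0401 with sPrdm16 and 0.121 with mock, over nuclear protein-coding genes at 5 CPM or more. CPM relate counts to library size, scaled so that most genes are level between libraries, and are not divided by gene length. A count of 0 allows up to 3 counts, which is at most 0.0802 CPM in a sPrdm16 library and 0.365 CPM in a mock library, for counting error only. The first principal component held 65.0% of the variance and separated the groups, and the second, with 19.7%, set mock replicate 3 apart from the other libraries.

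**Figure D1:**
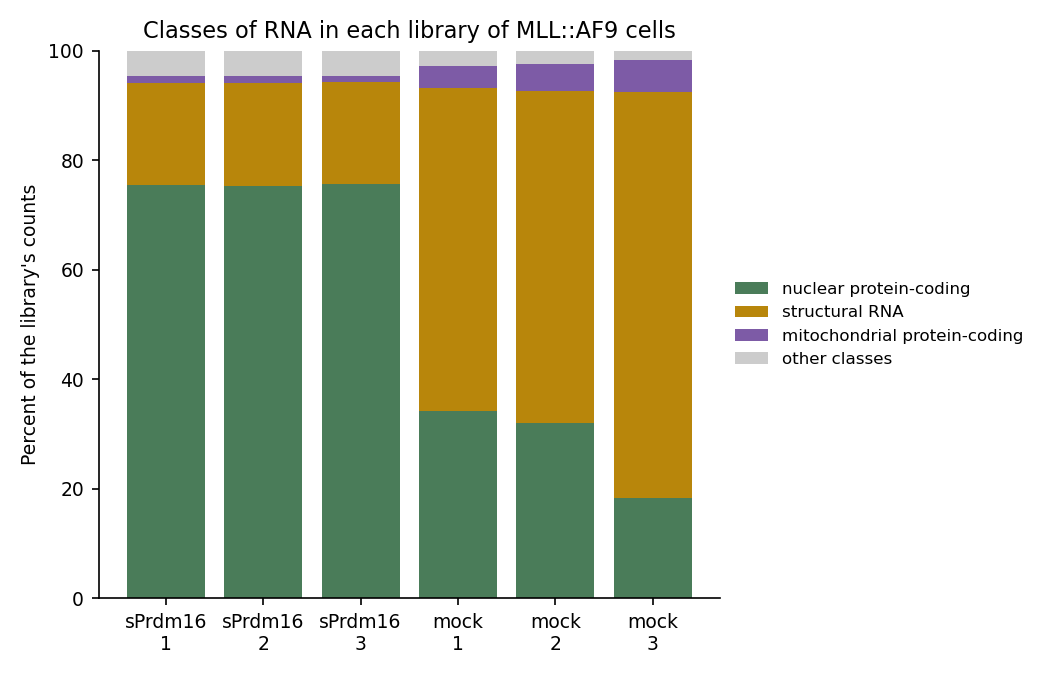
Share of each library's counts (vertical axis, percent) by class of RNA, for the 3 sPrdm16 libraries on the left and the 3 mock libraries on the right. Structural RNA takes 18.6% to 18.8% of the counts with sPrdm16 and 59.1% to 74.2% with mock, with the highest share in mock replicate 3.

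Of the 11359 nuclear protein-coding genes tested, 2153 rose with sPrdm16 and 1794 fell, which is 19.0% and 15.8% of those tested. "Rose" and "fell" stand for genes with an adjusted p under 0.05 in edgeR's quasi-likelihood test, adjusted by the Benjamini-Hochberg method over all 14394 genes tested. Most of the changes were small: 76.1% of the rises and 70.5% of the falls were under 2-fold, and the median called rise and fall were 0.58 and -0.62 on the log2 scale. At least 2-fold changes were counted in 514 rises (4.53% of genes tested) and 530 falls (4.67%), and at least 4-fold changes in 190 rises (1.67%) and 246 falls (2.17%). In 3301 genes (29.1%) every sPrdm16 library was above every mock library and in 2457 genes (21.6%) every sPrdm16 library was below. There were 32 called rises at 0 counts in all mock libraries and 4 called falls at 0 in all sPrdm16 libraries. The median log2 fold change of these genes was 0.06, so directions are relative to a scale on which the median gene is nearly level. With library totals alone as the scale, the median moved to 1.47, 10036 of these genes rose and 179 fell, and a fall smaller than this shift is a rise on that scale. The medians of the gene lists below were then all above 0 except those of the monocyte and eosinophil markers (-0.53 and -2.35). Which direction held more calls depended on the genes fitted: rises made up 54.5% of the calls, 64.8% without the filter on low counts (3044 rose and 1656 fell), 48.5% at 5 CPM or more in 3 libraries (1663 and 1763) and 48.3% with nuclear protein-coding genes fitted alone (1999 and 2143). Leaving out sPrdm16 replicate 1 gave 1339 rises and 1127 falls, leaving out replicate 2 gave 1360 and 1186, and leaving out replicate 3 gave 1385 and 1192.

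**Figure D2:**
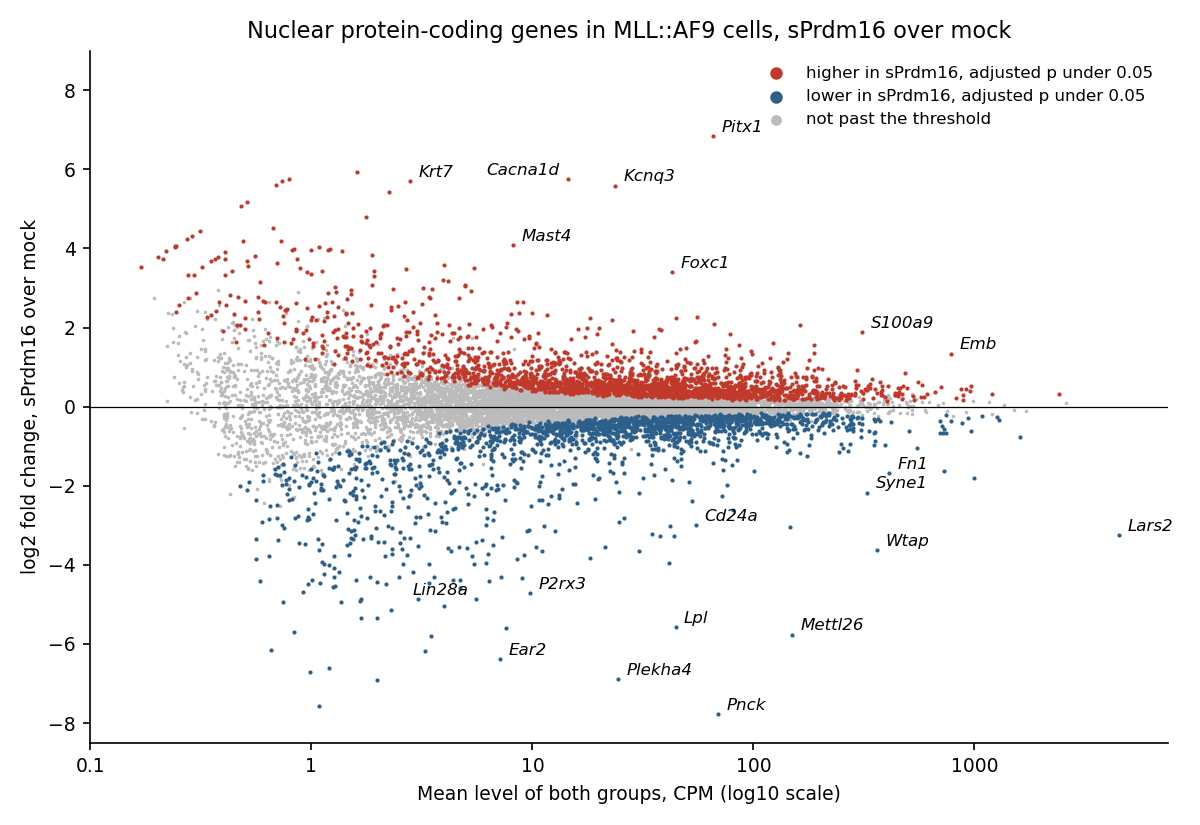
Log2 fold change of sPrdm16 over mock (vertical axis) against the mean level of both groups in CPM (horizontal axis, log10 scale) for nuclear protein-coding genes tested. Red points rose, blue points fell and grey points did not pass the threshold, and genes at 0 in a whole group are left out. Pitx1 stands highest at 6.84 and Pnck lowest at -7.78, and the most abundant genes lie within a narrow band around 0, with Lars2, Wtap, Syne1 and Fn1 below it.

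The 4 genes that mark this comparison were Prdm16 itself, the homeodomain factor Pitx1, the forkhead factor Foxc1 and the surface antigen Cd24a. Gene coordinates are those of the deposited table, on mm10. Prdm16 (ENSMUSG00000039410, chr4:154316125-154636873, minus strand) had 5733, 8889 and 5353 counts in the 3 sPrdm16 libraries and 0 in each mock library, a level of 139.9 ± 5.004 CPM (SD, n = 3) that is at least 383-fold above the mock floor of 0.365 CPM. Vector and genomic transcripts of Prdm16 were not told apart. In normal marrow cells Prdm16 had 950, 708 and 793 counts with sPrdm16, against 22, 18 and 0 with mock, so it was higher with sPrdm16 in both backgrounds. On a scale over all libraries of the study, Prdm16 with sPrdm16 stood at 31.2 to 38.1 CPM in normal cells and 171 to 185 CPM in MLL::AF9 cells. Its effect in MLL::AF9 cells minus that in normal cells was fitted at 9.22 (SE 1.69, edgeR adjusted p = 0.0015), a size that is not measured because the MLL::AF9 mock group is at 0, and with the replicate number as a block the adjusted p was 0.0566. Pitx1 (ENSMUSG00000021506, chr13:55825051-55836192, minus strand), a factor of hindlimb and pituitary development, stood at 132, 125 and 132 CPM with sPrdm16, against 0.714, 1.71 and 0.851 CPM with mock. This put its CPM with sPrdm16 near those of Prdm16, without division by gene length, and its mock level near the floor (log2 fold change 6.84, SE 0.18, adjusted p = 7.8e-08). In normal marrow cells Pitx1 had 0 counts in all 6 libraries, sPrdm16 libraries included.

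Foxc1 (ENSMUSG00000050295, chr13:31806633-31812476, plus strand), a factor of mesoderm and eye development, stood at 77.1, 76.8 and 81.4 CPM with sPrdm16, against 7.08, 7.51 and 7.66 CPM with mock. It was thus already present in mock, in each library, and 3.41 higher on the log2 scale with sPrdm16 (SE 0.09, adjusted p = 7.8e-08). In normal marrow cells Foxc1 had 6, 5 and 16 counts with sPrdm16, against 13, 8 and 9 with mock. The effect in MLL::AF9 cells minus that in normal cells was 3.75 (SE 0.45, edgeR adjusted p = 8.3e-06 over 16194 genes, 12 libraries). Cd24a (ENSMUSG00000047139, chr10:43578284-43584265, plus strand), which encodes the heat-stable antigen, a membrane-anchored glycoprotein of developing blood cells, stood at 11.9, 11.99 and 12.8 CPM with sPrdm16, against 96.04, 97.7 and 98.4 CPM with mock. Both groups were tight and far apart (-2.99, SE 0.07, adjusted p = 7.8e-08). Cd24a had 1290, 1167 and 1036 counts with sPrdm16 in normal marrow cells, against 3873, 3342 and 4385 with mock, and the effect in MLL::AF9 cells minus that in normal cells was -1.06 (SE 0.14, adjusted p = 1.7e-05).

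Beyond Prdm16, Pitx1 and Foxc1, the 15 largest rises held membrane channels, adhesion and cytoskeletal proteins and signalling scaffolds, each chosen by size of change, a level of 5 CPM or more in the higher group and groups that do not overlap. Cacna1d (ENSMUSG00000015968, chr14:30039939-30491455, minus strand), the pore of an L-type calcium channel, stood at 27.54, 30.7 and 27.3 CPM with sPrdm16, against 1.13, 0.183 and 0 CPM with mock (5.76, SE 0.42, adjusted p = 2e-05). Kcnq3 (ENSMUSG00000056258, chr15:65986387-66286642, minus strand), the pore subunit of a voltage-gated potassium channel, stood at 46.6, 49.8 and 42.4 CPM, against 1.19, 1.04 and 0.365 CPM with mock (5.59, SE 0.21, adjusted p = 7.5e-07). Both were all but absent in mock, where 1 library had 0 counts of Cacna1d, and without mock replicate 1 the fitted value of Cacna1d was 7.82. The keratin gene Krt7 (ENSMUSG00000023039, chr15:101411043-101430313, plus strand) stood at 5.66, 5.58 and 5.05 CPM with sPrdm16, against 0, 0 and 0.487 CPM with mock (5.71, SE 0.69, adjusted p = 0.00027). Its mock counts all lay in replicate 3, so without that library the mock group is at 0.

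The kinase gene Mast4 stood at 15.4 ± 0.743 CPM with sPrdm16 and 0.907 ± 0.0704 CPM with mock (SD, n = 3 each, log2 fold change 4.10, adjusted p = 1.6e-06). Akap12, a scaffold that anchors protein kinases, stood at 7.41 ± 0.297 and 0.581 ± 0.322 CPM in the same order (3.57), and Grb7, an adaptor that docks on receptor tyrosine kinases, at 9.94 ± 0.278 CPM with sPrdm16 and 0.992 ± 0.676 CPM with mock (3.497). Cdh1, the adhesion protein E-cadherin, stood at 9.43, 9.09 and 8.34 CPM with sPrdm16, against 1.61, 0.916 and 0.365 CPM with mock (3.08, adjusted p = 0.00013). Its groups were several-fold apart, and its mock libraries spread over a range wider than their mean. Smaller values among these rises were those of the kinase gene Mak (3.17, adjusted p = 0.00099), Dnajc6, a cochaperone that uncoats clathrin vesicles (3.04, adjusted p = 0.00011), the glutathione transferase gene Gsta4 (2.999, adjusted p = 0.0012) and the ubiquitin ligase gene Rnf144a (2.97, adjusted p = 6.7e-05). Mak had 0 counts in mock replicate 3, and its fitted value was 4.09 without mock replicate 1. In Gsta4 mock replicate 3 was 4.37 times the mean of the other mock libraries. Dnajc6 stood at 1.71 CPM in mock replicate 2, against 0.655 and 0.730 CPM in mock replicates 1 and 3.

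In several of the 15 largest falls the mock libraries disagreed, and 3 such genes are given first. Pnck (ENSMUSG00000002012, chrX:73655994-73660117, minus strand), a calmodulin-dependent kinase, stood at 0.468, 0.577 and 0.829 CPM with sPrdm16, against 60.04, 97.1 and 256 CPM with mock (-7.78, SE 0.80, adjusted p = 0.00096). Plekha4, a membrane-binding protein with a pleckstrin homology domain, stood at 0.281, 0.433 and 0.481 CPM with sPrdm16, against 34.3, 32.9 and 77.6 CPM with mock (-6.88, SE 0.48, adjusted p = 6.3e-05). Mettl26, a gene of unclear function, stood at 5.78, 5.36 and 4.94 CPM with sPrdm16, against 207, 195 and 477 CPM with mock (-5.76, SE 0.46, adjusted p = 0.00037). The groups did not overlap in any of them, and mock replicate 3 was 3.26, 2.31 and 2.37 times the mean of the other mock libraries, against a median of 0.999 over all nuclear protein-coding genes at 5 CPM or more in mock. Without that library the falls were -6.99, -6.38 and -5.22, and Pnck did not pass the threshold under limma-voom (adjusted p = 0.0589, against a range of 8.4e-45 to 0.0589 over its alternatives).

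Genes of granules and of the cell surface made up much of the rest. Camp (ENSMUSG00000038357, chr9:109847379-109849617, minus strand), the neutrophil antimicrobial peptide cathelicidin, stood at 0.0936, 0.144 and 0.107 CPM with sPrdm16, against 7.498, 5.80 and 7.30 CPM with mock (-5.81, SE 0.34, adjusted p = 5.9e-06). Mmp8 (ENSMUSG00000005800, chr9:7558456-7568485, plus strand), neutrophil collagenase, stood at 0.632, 0.417 and 0.668 CPM with sPrdm16, against 9.34, 12.8 and 14.2 CPM with mock (-4.42, SE 0.27, adjusted p = 8.1e-06). The ribonuclease genes Ear2 and Ear1 of eosinophil granules stood at -6.38 and -6.18, but they belong to a family of near-identical copies between which counts may be split, so neither value is certain. Cd74, the invariant chain of MHC class II, stood at 0.491, 0.273 and 0.347 CPM with sPrdm16, against 4.11, 9.46 and 13.4 CPM with mock (-4.58). Wfdc17, a small secreted protein of macrophages, stood at 0.268 ± 0.155 CPM with sPrdm16 and 6.53 ± 5.08 CPM with mock (SD, n = 3 each, -4.47), with mock replicate 3 at 3.36 times the other mock libraries. In these last 2 genes the mock libraries differed from each other by 3-fold or more.

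Lpl (ENSMUSG00000015568, chr8:68880491-68907448, plus strand), the lipoprotein lipase that frees fatty acids from circulating triglycerides, stood at 1.85, 1.73 and 1.90 CPM with sPrdm16, against 52.1, 91.6 and 117 CPM with mock (-5.57, SE 0.33, adjusted p = 3.4e-05). Slc22a3, a transporter of organic cations, stood at 0.164, 0.273 and 0.508 CPM with sPrdm16, against 16.8, 12.7 and 15.1 CPM with mock (-5.59, adjusted p = 5.3e-06). Lin28a (ENSMUSG00000050966, chr4:134003330-134018841, minus strand), which blocks the maturation of let-7 microRNAs in fetal and stem cells, stood at 0.328, 0.433 and 0.321 CPM with sPrdm16, against 12.2, 11.4 and 8.76 CPM with mock (-4.87, SE 0.26, adjusted p = 3.5e-06). All 3 were clearly expressed in each mock library and below 2 CPM in each sPrdm16 library. P2rx3, an ATP-gated cation channel known from sensory neurons, fell to 0.710 ± 0.116 CPM with sPrdm16, against 18.8 ± 3.66 CPM with mock (SD, n = 3 each, -4.71). The centrosomal gene Cep126 (-5.04) and Tenm4, a transmembrane adhesion protein of neurons (-4.87), complete the 15.

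**Figure D3:**
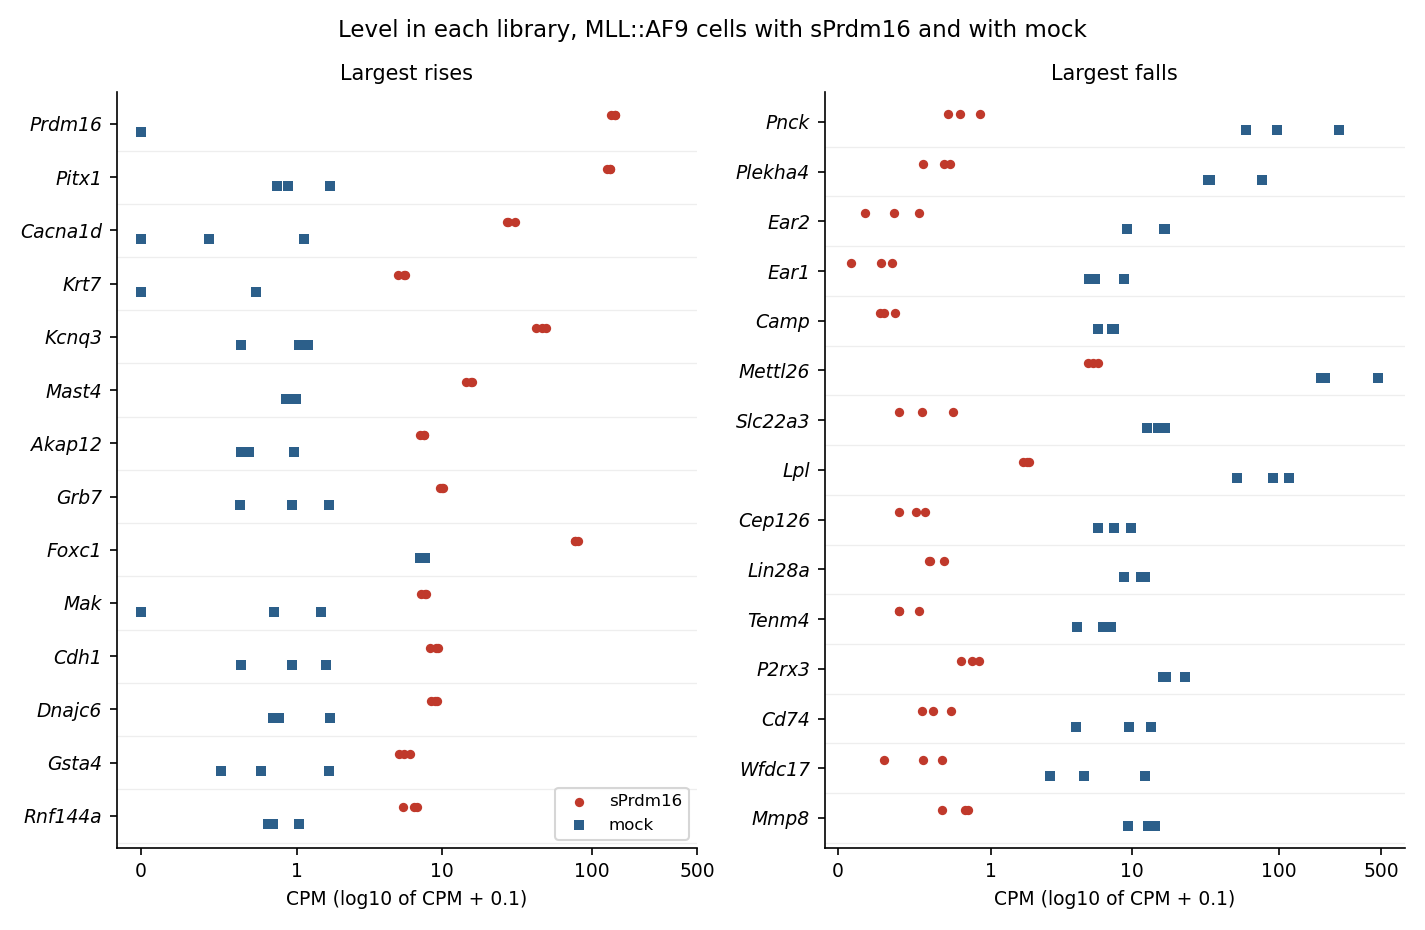
Level in CPM in each library (horizontal axis, log10 of CPM + 0.1) of the genes with the largest rises reported here (left) and the 15 largest falls (right), with sPrdm16 libraries as red circles and mock libraries as blue squares. No gene's groups overlap, since the choice of genes required it, and Prdm16 is at 0 in all 3 mock libraries.

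Promoter sequences are shown for 4 genes because the stretch before the start differed in base composition and motifs between genes that changed by 2-fold or more and the rest. RefSeq promoters of mouse genome build GRCm38.p6, from 250 bases before to 50 after the start, were matched to 9100 of the 11359 genes. The median number of CG dinucleotides per promoter was 15.5 in genes that rose by at least 2-fold and 15 in those that fell by as much, against 23.0 in called genes under 2-fold and 21 in all 9100. The letters GAGGAAGT, a form of the PU.1 site of myeloid genes, stood on either strand in 1.55% of promoters that rose by at least 2-fold and in 6.74% of those that fell, against 3.38% of all. The 2 rises below carry the CCAAT box in capitals on either strand, and were shown because Foxc1 has 32 CG dinucleotides in this window and Cacna1d 4. Foxc1 is thus above the median of all promoters, unlike the rises as a set. CCAAT stood in 38.1% of promoters with such rises, against 40.1% of all. The 2 falls below carry GAGGAAGT in capitals as its reverse complement, and were taken as the largest falls among the 11 eligible ones that hold it. Foxc1 lies at chr13:31806396-31806695 on the plus strand, Cacna1d at chr14:30491107-30491406 on the minus strand, Mmp8 at chr9:7558179-7558478 on the plus strand and Ctss, the cysteine protease cathepsin S, at chr3:95526536-95526835 on the plus strand.
Foxc1: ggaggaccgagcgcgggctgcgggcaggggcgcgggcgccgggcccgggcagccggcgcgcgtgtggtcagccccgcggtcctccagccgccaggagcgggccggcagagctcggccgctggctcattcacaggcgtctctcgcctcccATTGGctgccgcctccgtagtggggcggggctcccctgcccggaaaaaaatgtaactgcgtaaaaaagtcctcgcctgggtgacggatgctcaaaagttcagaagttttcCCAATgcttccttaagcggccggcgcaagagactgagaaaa
Cacna1d: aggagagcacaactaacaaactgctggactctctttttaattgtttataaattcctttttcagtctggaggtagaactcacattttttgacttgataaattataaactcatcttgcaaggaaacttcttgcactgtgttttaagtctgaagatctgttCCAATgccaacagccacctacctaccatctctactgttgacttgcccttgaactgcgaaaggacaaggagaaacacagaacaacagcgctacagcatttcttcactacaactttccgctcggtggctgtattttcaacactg
Mmp8: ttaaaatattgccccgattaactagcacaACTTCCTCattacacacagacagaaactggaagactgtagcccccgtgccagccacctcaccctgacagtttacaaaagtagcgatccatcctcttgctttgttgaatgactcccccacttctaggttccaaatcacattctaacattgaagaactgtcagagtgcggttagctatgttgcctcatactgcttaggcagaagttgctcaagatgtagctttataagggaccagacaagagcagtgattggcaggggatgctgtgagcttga
Ctss: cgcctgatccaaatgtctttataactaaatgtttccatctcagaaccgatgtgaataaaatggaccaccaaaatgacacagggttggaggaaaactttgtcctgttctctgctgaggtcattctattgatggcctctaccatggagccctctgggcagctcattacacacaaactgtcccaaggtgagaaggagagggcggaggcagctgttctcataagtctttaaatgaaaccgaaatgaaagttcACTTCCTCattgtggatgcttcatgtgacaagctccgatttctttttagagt

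Of 12 motifs searched on both strands, 5 more differed by 3 percentage points or more between either set of larger changes and all promoters. The ETS form CCGGAAG stood in 8.29% of promoters with at least 2-fold rises, 5.44% with such falls and 19.8% of all, and the TATA box TATAAA in 11.1%, 10.6% and 6.89% of the same sets. The CCAAT box CCAAT stood in 38.1%, 33.2% and 40.1%, the AP-1 form TGANTCA in 6.99%, 8.81% and 4.76%, and GATA, as AGATAA, in 7.77%, 9.84% and 6.16%. The C/EBP form TTGCNNAA stood in 9.33%, 10.6% and 8.21%, CRE as TGACGTCA in 1.81%, 1.55% and 3.37%, and the E-box CACGTG in 7.51%, 7.77% and 10.4%. RUNX as TGTGGT stood in 13%, 15.3% and 12.5%, PITX as TAATCC in 5.96%, 6.22% and 5.29%, and FOX as GTAAACA in 3.37%, 2.59% and 2.44%. GAGGAAGT and CCGGAAG share the letters GGAAG. The ETS, CRE, E-box and CCAAT forms had lower shares in both sets than in all promoters, and of these only CCAAT holds no CG. A match describes the letters in this window only.

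The genes with the largest differences in CPM, rather than in fold, belonged to other groups. Emb, a membrane chaperone of lactate transporters, stood at 1149, 1128 and 1107 CPM with sPrdm16, against 373, 461 and 502 CPM with mock (1.34, SE 0.10, adjusted p = 2e-05). S100a9, a calcium-binding protein of neutrophils and monocytes, stood at 499, 491 and 476 CPM with sPrdm16, against 102, 129 and 165 CPM with mock (1.89, SE 0.15, adjusted p = 5.1e-05). Sorl1, a sorting receptor, stood at 625 ± 6.22 CPM with sPrdm16 and 349 ± 17.7 CPM with mock, and Thbs1, the matrix glycoprotein thrombospondin, at 1141 ± 3.02 and 787 ± 38.1 CPM (SD, n = 3 each). Their log2 fold changes were 0.84 and 0.53. The complement gene C3 (0.45), pyruvate kinase Pkm (0.45), the proliferation antigen Mki67 (0.33) and the elongation factor gene Eef2 (0.41) rose by less than 2-fold. Eef1a1, the most abundant of the 10, rose by 0.32 (adjusted p = 0.013) and the ribosomal stalk gene Rplp0 by 0.504 (adjusted p = 0.0096). Both calls ended without mock replicate 2 (adjusted p = 0.0767 and 0.0524), and that of Eef1a1 also without sPrdm16 replicate 1 (0.0595) and replicate 2 (0.0559).

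Several of the largest falls in CPM were in genes whose mock replicate 3 stood apart or that contain small RNA genes. Lars2, the mitochondrial leucyl-tRNA synthetase, stood at 749.8, 912 and 919 CPM with sPrdm16, against 6274, 5695 and 12479 CPM with mock (-3.24, SE 0.35, adjusted p = 0.0011). Its mock replicate 3 was 2.09 times the other mock libraries, and the same ratio was 2.34 over the mitochondrial ribosomal RNA genes. The part of either in the result was not tested. Wtap, a subunit of the RNA adenosine methylation complex, stood at 55.8, 55.3 and 51.8 CPM with sPrdm16, against 347, 639 and 1029.9 CPM with mock (-3.63, adjusted p = 0.0015), and without mock replicate 3 it stood at -3.18. Rps3, a protein of the small ribosomal subunit, stood at 440.0, 452 and 433 CPM with sPrdm16, against 1270.4, 1304 and 2045 CPM with mock (-1.80, adjusted p = 0.00028). Inside Rps3 lies the small nucleolar RNA gene Snord15b, which had 4226, 5390 and 2589 counts with sPrdm16 and 15104, 14197 and 12876 with mock, and reads of a small RNA and its host cannot be told apart where they overlap. Genes with a structural RNA gene in an exon fell in 32 of 113 cases (28.3%) and rose in 16, genes with one in an intron fell in 131 of 713 (18.4%) and rose in 118, and the 10533 others fell in 1631 (15.5%) and rose in 2019.

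Among the other large falls in CPM, Syne1, a giant protein that links the nucleus to actin, stood at 117, 119 and 121 CPM with sPrdm16, against 612, 525 and 469.6 CPM with mock (-2.17, SE 0.09, adjusted p = 1.6e-06). The histone chaperone gene Anp32b stood at 358 ± 10.4 CPM with sPrdm16 and 1099.9 ± 128 CPM with mock (-1.62), and Baz1a, a subunit of a nucleosome-sliding complex, at 358 ± 6.09 and 744 ± 19.98 CPM (-1.05, SD, n = 3 each). Fn1, fibronectin, stood at 199, 192 and 197 CPM with sPrdm16, against 403, 679 and 804 CPM with mock (-1.68, adjusted p = 0.0026), with mock replicate 1 well below the other mock libraries. Nucleolin, Ncl (-0.77), the initiation factor subunit Eif3a (-0.61) and the ribosomal stalk gene Rplp2 (-0.66) fell by less than 2-fold. Ncl holds the small nucleolar RNA gene Snord82, with 500, 595 and 344 counts with sPrdm16 and 1079, 931 and 719 with mock.

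Transcription factors moved in both directions. Of 34 homeobox, forkhead and other developmental factors tested, 11 rose and 9 fell (median log2 fold change 0.06), a larger share called than the 34.7% of all nuclear protein-coding genes, though the markers Pitx1 and Foxc1 are among them. Besides those, Zeb2, a repressor that governs myeloid and dendritic lineage choice, stood at 188, 191 and 184 CPM with sPrdm16, against 358, 372 and 349.7 CPM with mock (-0.94, adjusted p = 4.9e-06). Tcf4, the E protein of plasmacytoid dendritic cells, fell by 1.08 on the log2 scale. Of 29 blood cell transcription factors 8 rose and 8 fell (median 0.02), a called share of 55.2%. Bcl11a, a factor of lymphoid and dendritic progenitors, stood at 2.34, 3.37 and 1.66 CPM with sPrdm16, against 22.97, 20.8 and 16.4 CPM with mock (-3.01). The monocyte factors Irf8 and Klf4 stood at 9.03 ± 0.363 and 0.350 ± 0.158 CPM with sPrdm16, against 40.3 ± 10.8 and 6.79 ± 1.67 CPM with mock (-2.15 and -4.31). Runx3, by contrast, rose to 10.6 ± 0.933 CPM with sPrdm16, against 2.59 ± 1.001 CPM with mock (2.004, SD, n = 3 each).

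Among 14 tested Hoxa and Hoxb genes with Meis1 and Pbx3, which MLL fusions keep active, 1 rose and 3 fell (median -0.15), a called share of 28.6% against 34.7% over all nuclear protein-coding genes. Hoxa9 stood at 35.9, 40.7 and 34.9 CPM with sPrdm16, against 47.54, 43.04 and 40.7 CPM with mock (-0.24, SE 0.09, adjusted p = 0.075). Meis1 stood at 108, 114 and 113 CPM with sPrdm16, against 106, 94.1 and 86.1 CPM with mock (0.22, SE 0.08, adjusted p = 0.062). Neither passed the threshold, and under some alternatives each did. Hoxa9 was called lower with DESeq2 (adjusted p = 0.0461) and at 5 CPM or more in 3 libraries (0.0363). It was also called lower with nuclear protein-coding genes alone (0.0399) and without mock replicate 3 (0.0278). Meis1 was called higher with limma-voom (0.0388), without the filter on low counts (0.00156) and without mock replicate 1 (0.00648). On the library-total scale Hoxa9 stood at 1.16 and Meis1 at 1.61. The falls were Hoxb4 at 4.49 ± 1.08 CPM with sPrdm16 and 17.1 ± 4.96 CPM with mock (-1.90), Hoxa10 (-1.01) and Hoxa11 (-2.63). Hoxa7 rose by 0.34 (adjusted p = 0.02), a call that ended without any 1 of the 3 sPrdm16 libraries (adjusted p = 0.103 without replicate 1, 0.0579 without replicate 2 and 0.0613 without replicate 3).

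Most of the partner and chromatin genes named here changed by less than 2-fold, apart from Ctbp2 and Men1. Of 21 PRDM family and Prdm16 partner genes 5 rose and 4 fell (median 0.14), a called share of 42.9% against 34.7% over all nuclear protein-coding genes. The corepressor gene Ctbp2 stood at 38.2, 38.8 and 40.9 CPM with sPrdm16, against 13.6, 14.8 and 22.503 CPM with mock (1.25), Zfp516, a Prdm16 partner in brown fat, rose by 0.91 and the corepressor gene Rcor1 by 0.52. Of 46 chromatin writers, erasers and DNA methylation genes 10 rose and 6 fell (median 0.11), a called share of 34.8% that is the background share, among them the H3K27 demethylase gene Kdm6b (0.60) and the methylcytosine dioxygenase gene Tet2 (-0.44). Of 20 genes of the MLL complex and its cofactors 6 rose and 1 fell (median 0.02), a called share of 35.0%. Men1, the menin subunit that tethers MLL to chromatin, stood at 29.8, 31.2 and 28.8 CPM with sPrdm16, against 11.9, 15.1 and 16.2 CPM with mock (1.07, SE 0.12, adjusted p = 0.00021). Ash2l (0.49), the elongation scaffold Aff4 (0.59) and Mllt1 (0.61) rose by less.

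Receptors and surface antigens fell more often than they rose. Of 35 cytokine and growth factor receptors 13 fell and 6 rose (median -0.08), and of 32 progenitor and myeloid surface antigens 12 fell and 7 rose (median -0.09), against 15.8% falls and 19.0% rises over all nuclear protein-coding genes. Cxcr4, the chemokine receptor that holds progenitors in marrow, stood at 25.97, 25.7 and 24.2 CPM with sPrdm16, against 68.01, 61.1 and 57.8 CPM with mock (-1.30, SE 0.08, adjusted p = 1e-05). Il6st, the shared signal chain of the IL-6 family, stood at 14.1 ± 0.561 CPM with sPrdm16 and 49.4 ± 10.9 CPM with mock (-1.80), Il17ra at -1.06 and the chemokine receptor gene Ccr1 at -2.59. Flt3, a receptor of multipotent and dendritic progenitors, had 64, 67 and 53 counts with sPrdm16 and 0 in each mock library, a level at least 3.64-fold above the mock floor. Of the surface antigens the tetraspanin gene Cd63 stood at 18.8, 17.9 and 19.1 CPM with sPrdm16, against 71.8, 68.503 and 60.2 CPM with mock (-1.85). Spn (CD43) fell by 0.52 on the log2 scale, while the lectin receptor gene Clec12a rose by 0.72 (adjusted p = 0.0001).

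Adhesion genes had the highest share of calls of any list of pathway genes, with 14 rises and 9 falls of 31 (median 0.10), or 74.2% against 34.7% over all nuclear protein-coding genes. Itgb3 (ENSMUSG00000020689, chr11:104608000-104670476, plus strand), the beta chain of the vitronectin receptor, stood at 1.66, 1.68 and 1.497 CPM with sPrdm16, against 20.47, 19.1 and 22.02 CPM with mock (-3.66, SE 0.14, adjusted p = 1.1e-06). Alcam, an adhesion molecule of the immunoglobulin family, stood at 2.43, 1.67 and 1.66 CPM with sPrdm16, against 15.8, 17.3 and 18.002 CPM with mock (-3.15, adjusted p = 7.1e-06). Pecam1 (ENSMUSG00000020717, chr11:106654217-106750628, minus strand), an adhesion molecule of leukocytes, platelets and endothelium, went the other way, with 60.2, 60.4 and 58.2 CPM with sPrdm16, against 13.8, 16.48 and 15.6 CPM with mock (1.97, SE 0.09, adjusted p = 1.7e-06). Itgb2, the beta chain shared by leukocyte integrins, fell by 0.78 on the log2 scale. Of 46 genes of the cytoskeleton, keratins and their regulators 15 rose and 11 fell (median 0.03), a called share of 56.5%, with Actn1 at 0.87, the membrane linker Msn at -0.96 and the myosin gene Myo1e at -2.06.

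Channels and transporters were read against shares of 19.0% rises and 15.8% falls over all nuclear protein-coding genes. Of 38 ion channels and pumps 10 rose (26.3%) and 8 fell (21.1%; median -0.05), with Cacna1d and Kcnq3 at the top, the calcium pump gene Atp2a3 at 0.85 and the sodium pump subunit Atp1b1 at 5.01 ± 0.243 CPM with sPrdm16 and 26.9 ± 0.712 CPM with mock (-2.42). Of 21 amino acid transporters 10 fell (47.6%) and 3 rose (14.3%; median -0.19), and of 31 carriers of glucose, lactate and other solutes 10 fell (32.3%) and 3 rose (9.68%; median -0.16). Slc3a2, the chain that brings several amino acid exchangers to the surface, stood at 59.8, 58.97 and 59.3 CPM with sPrdm16, against 104, 97.9 and 108 CPM with mock (-0.80, adjusted p = 3e-05). The glutamine carrier gene Slc1a5 fell by 0.50 on the log2 scale and Slc36a4 by 0.84 on the log2 scale, while Slc43a1 stood at 4.91 ± 0.815 CPM with sPrdm16 and 0.846 ± 0.539 CPM with mock (2.40). Slc40a1, the iron exporter ferroportin, stood at 1.97, 1.78 and 1.74 CPM with sPrdm16, against 12.3, 9.59 and 13.02 CPM with mock (-2.66), and the lactate carrier gene Slc16a1 rose by 0.72.

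The genes of mitochondrial carriers, import, dynamics and mitophagy named here rose by less than 2-fold, and the called shares of their lists were not above that of all genes. Of 42 mitochondrial carriers and import genes 10 rose and 1 fell (median 0.09), and of 36 genes of mitochondrial dynamics, transcription and mitophagy 10 rose and 2 fell (median 0.13). The called shares were 26.2% and 33.3%, against 34.7% over all nuclear protein-coding genes, with rises at 23.8% and 27.8%, against 19.0%, and falls at 2.38% and 5.56%, against 15.8%. Tomm70a, a receptor of the outer membrane import pore, stood at 184, 184 and 189 CPM with sPrdm16, against 112, 107 and 110.4 CPM with mock (0.76, SE 0.05, adjusted p = 1.7e-05). The citrate carrier gene Slc25a1 rose by 0.70 and the aspartate-glutamate carrier gene Slc25a13 by 0.62. The mitophagy receptor genes Bnip3 and Bnip3l rose by 0.97 and 0.499, the prohibitin gene Phb2 by 0.46 and the inner membrane protease gene Yme1l1 by 0.35. Phb2 rose although it holds the small nucleolar RNA gene Gm23547, with 105, 191 and 126 counts with sPrdm16 and 887, 959 and 898 with mock.

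Of 44 genes of fatty acid handling, lipid droplets and the peroxisome 16 rose (36.4%) and 7 fell (15.9%; median 0.16), against 19.0% rises and 15.8% falls over all nuclear protein-coding genes. Abcd2, a peroxisomal importer of very long chain fatty acids, stood at 204, 198 and 195 CPM with sPrdm16, against 80.9, 93.3 and 82.8 CPM with mock (1.21, SE 0.07, adjusted p = 5.1e-06). Acadl, the long chain acyl-CoA dehydrogenase, stood at 101, 105 and 103 CPM with sPrdm16, against 41.53, 50.4 and 49.9 CPM with mock (1.13, adjusted p = 2.1e-05), and its medium chain relative Acadm rose by 0.91. Lpl, with the list's largest fall, was described above. Of 32 genes of sphingolipids, leukotrienes and prostaglandins 6 rose (18.8%) and 8 fell (25%; median -0.08). The acid sphingomyelinase gene Smpd1 rose by 1.87, the sphingosine phosphate lyase gene Sgpl1 by 1.18 and the receptor gene S1pr3 by 1.41, while Alox5, the enzyme that begins leukotriene synthesis, stood at 9.43, 8.42 and 8.98 CPM with sPrdm16, against 20.6, 21.4 and 24.7 CPM with mock (-1.31).

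In amino acid, serine and one-carbon metabolism 9 of 46 genes rose and 8 fell (median 0.14), near the background share. Sat1, the enzyme that starts polyamine breakdown, stood at 85.9 ± 2.51 CPM with sPrdm16 and 48.3 ± 6.73 CPM with mock (0.84, SD, n = 3 each), the branched-chain keto acid dehydrogenase gene Bckdha rose by 1.10 and the spermine synthase gene Sms by 0.65. Cth, which makes cysteine from cystathionine, fell to 0.433 ± 0.209 CPM with sPrdm16, against 3.15 ± 0.713 CPM with mock (-2.82). Of 42 genes of purine and pyrimidine synthesis and salvage 14 rose (33.3%) and 5 fell (11.9%; median 0.10), against 19.0% and 15.8% over all nuclear protein-coding genes. Impdh1, a rate-limiting enzyme of guanine nucleotide synthesis, stood at 15.7, 15.6 and 15.3 CPM with sPrdm16, against 3.99, 5.86 and 5.72 CPM with mock (1.60, SE 0.16, adjusted p = 0.00011). Adenosine deaminase, Ada, rose by 1.07, the uridylate synthase gene Umps by 0.49, and xanthine dehydrogenase, Xdh, fell by 0.72 on the log2 scale.

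Most of the cell cycle and repair genes named here changed by less than 2-fold, apart from Xrcc5, Cdkn1c and Btg2. The share called over all nuclear protein-coding genes was 34.7%, with 19.0% risen and 15.8% fallen. Of 47 genes of DNA replication and S phase 10 rose and 9 fell (median 0.04), a called share of 40.4%, with the helicase subunits Mcm4 and Mcm6 at 0.41 and 0.34 and the checkpoint gene Clspn and the polymerase gene Pola1 at -0.41 and -0.44. Of 48 genes of G2 and mitosis 12 rose and 3 fell (median 0.11), a called share of 31.3%, with Ccnb2 at 0.64, the condensin gene Ncaph at 0.46, the checkpoint kinase gene Bub1b at -0.30 and Incenp, a partner of Aurora B, at -0.58. Of 58 genes of DNA damage response and repair 8 rose and 5 fell (median 0.07), a called share of 22.4%, among them the helicase gene Wrn (0.64), the mismatch repair gene Msh6 (0.53) and the Fanconi gene Fanca (-0.70). Xrcc5, a Ku subunit that binds broken DNA ends for their joining, stood at 2.597, 2.39 and 2.51 CPM with sPrdm16, against 0.298, 0.305 and 0.608 CPM with mock (2.73, SE 0.39, adjusted p = 0.00069), where it had 5 counts in each library. Of 22 G1 cyclins and CDK inhibitors 4 rose and 5 fell (median -0.03), a called share of 40.9%. Cdkn1c, the inhibitor p57 that marks quiescent stem cells, stood at 15.1, 15.3 and 13.7 CPM with sPrdm16, against 4.88, 2.99 and 5.72 CPM with mock (1.74, SE 0.21, adjusted p = 0.00027). The inhibitor gene Cdkn2c (-0.77), Gadd45a (-0.62) and the antiproliferative gene Btg2 (-1.24) fell.

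Of 38 apoptosis regulators 8 rose and 7 fell (median -0.05), a called share of 39.5% against 34.7% over all nuclear protein-coding genes. The survival gene Bcl2 stood at 1.73, 1.75 and 1.82 CPM with sPrdm16, against 8.15, 6.59 and 5.23 CPM with mock (-1.93, SE 0.24, adjusted p = 0.00029). Bcl2l1, which encodes the related survival protein BCL-XL, stood at 13.4, 12.4 and 12.4 CPM with sPrdm16, against 25.2, 26.1 and 27.9 CPM with mock (-1.04, adjusted p = 7.4e-05). Cytochrome c, Cycs, which carries electrons and activates caspases when released, stood at 47.3, 45.52 and 44.7 CPM with sPrdm16, against 99.4, 97.1 and 104 CPM with mock (-1.12). Each of these 3 genes was lower in every sPrdm16 library. Caspase 9, Casp9, rose by 0.80.

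Signalling genes were called at shares of 30.0% (MAPK) to 45.0% (PI3K), around the background of 34.7%. Of 40 genes of MAPK, RAS and their feedback 4 rose and 8 fell (median 0.02), with Map3k5, a stress-activated kinase, at 5.16 ± 0.363 CPM with sPrdm16 and 21.9 ± 0.973 CPM with mock (-2.09), Map3k8 at -2.20, Map3k1 at -0.91 and Braf at 0.68. Of 40 genes of PI3K, AKT and mTOR 11 rose and 7 fell (median 0.05). The PI3K subunits Pik3cb and Pik3cd stood at -1.32 and -0.89. The kinase gene Stk11, which activates AMPK, fell by 0.66 on the log2 scale. Of 28 genes of JAK, STAT and SOCS 5 rose and 6 fell (median 0.03), with Ptpn2 at 0.58, Ptpn1 at -0.63, Stat3 at 0.39 and Stat6 at 0.29.

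In the TGF-beta, BMP and SMAD list 2 of 18 rose and 4 fell (median -0.23), a called share of 33.3% against 34.7% over all nuclear protein-coding genes. Smad7, an inhibitor of the pathway, stood at 18.4, 16.9 and 19.004 CPM with sPrdm16, against 6.72, 7.20 and 7.42 CPM with mock (1.35, SE 0.12, adjusted p = 5.8e-05). The receptor gene Bmpr1a stood at 0.680 ± 0.228 CPM with sPrdm16 and 5.18 ± 0.595 CPM with mock (-2.95), the induced matrix gene Tgfbi at -2.31 and the ubiquitin ligase gene Smurf1 at -0.79. Of 27 genes of WNT and Notch signalling 7 rose and 6 fell (median -0.00), a called share of 48.1%. Fzd7, a WNT receptor, stood at 4.70, 5.003 and 4.28 CPM with sPrdm16, against 23.8, 24.2 and 17.2 CPM with mock (-2.23), while beta-catenin, Ctnnb1, rose by 0.84, the coreceptor gene Lrp5 by 0.81 and Notch1 by 0.78. Of 15 axon guidance genes 2 rose and 3 fell (median -0.04), with Nrp2 at 0.79 and the semaphorin receptor gene Plxnb2 at 0.702, 0.786 and 0.695 CPM with sPrdm16, against 5.06, 13.4 and 16.3 CPM with mock (-3.96).

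Genes of protein quality control and breakdown were counted by compartment, beside 19.0% rises and 15.8% falls over all nuclear protein-coding genes. Of 32 genes of the unfolded protein and ATF4 response 11 rose (34.4%) and 2 fell (6.25%; median 0.12). Ero1l, an oxidase of the endoplasmic reticulum, stood at 243, 250.5 and 241 CPM with sPrdm16, against 137, 126 and 126 CPM with mock (0.92, SE 0.06, adjusted p = 8.6e-06). The sensor gene Ern1 (IRE1) rose by 0.94 and the chaperone gene Sdf2l1 by 0.97, while the ATF4 target Atf5 fell by 0.91 on the log2 scale. Of 31 proteasome subunits 8 rose (25.8%) and 2 fell (6.45%; median 0.12), with Psma1 at 0.48 and Psmd6 at -0.46. Of 51 lysosome and autophagy genes 11 rose (21.6%) and 12 fell (23.5%; median 0.17). The mannosidase gene Man2b1 stood at 249, 246 and 244 CPM with sPrdm16, against 98.8, 109.5 and 117 CPM with mock (1.19), and the glucuronidase gene Gusb rose by 0.57. Ctss stood at 4.54, 3.51 and 5.35 CPM with sPrdm16, against 33.3, 63.4 and 71.4 CPM with mock (-3.65, SE 0.31, adjusted p = 0.00011), and the cathepsin gene Ctsh at -2.08.

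Of 39 aminoacyl-tRNA synthetases and translation factors 15 fell (38.5%) and 6 rose (15.4%; median -0.07), against 15.8% and 19.0% over all nuclear protein-coding genes, with Eif4a2, an RNA helicase of initiation, at 146, 159 and 152 CPM with sPrdm16, against 338, 328 and 344 CPM with mock (-1.15), and the synthetase genes Cars and Lars at -0.70 and -0.67. Eif4a2 hosts the small nucleolar RNA gene Snora81, with 46, 74 and 45 counts with sPrdm16 and 4883, 4917 and 6435 with mock. Of 44 ABC transporters and drug-metabolising enzymes 14 rose (31.8%) and 5 fell (11.4%; median 0.24). The glutathione transferase genes Gstm1, Gstm4 and Gstm5 stood at 1.57, 1.52 and 1.83, values that are uncertain between such close copies, and Gstm1 was the most abundant at 289, 279.8 and 275 CPM with sPrdm16, against 68.55, 97.7 and 120.3 CPM with mock. Abcc5, an exporter of nucleotide analogues and cyclic nucleotides, stood at 53.8, 55.3 and 59.1 CPM with sPrdm16, against 101, 95.49 and 97.3 CPM with mock (-0.80, SE 0.06, adjusted p = 3.3e-05). Of 33 interferon response genes 8 rose and 4 fell (median 0.21), a called share of 36.4% that is near the background of 34.7%, with Ifitm1 at 1.62, the MHC class I activator Nlrc5 at 1.89 and Irf5 at -2.15. Ifitm1 also has close copies.

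**Figure D4:**
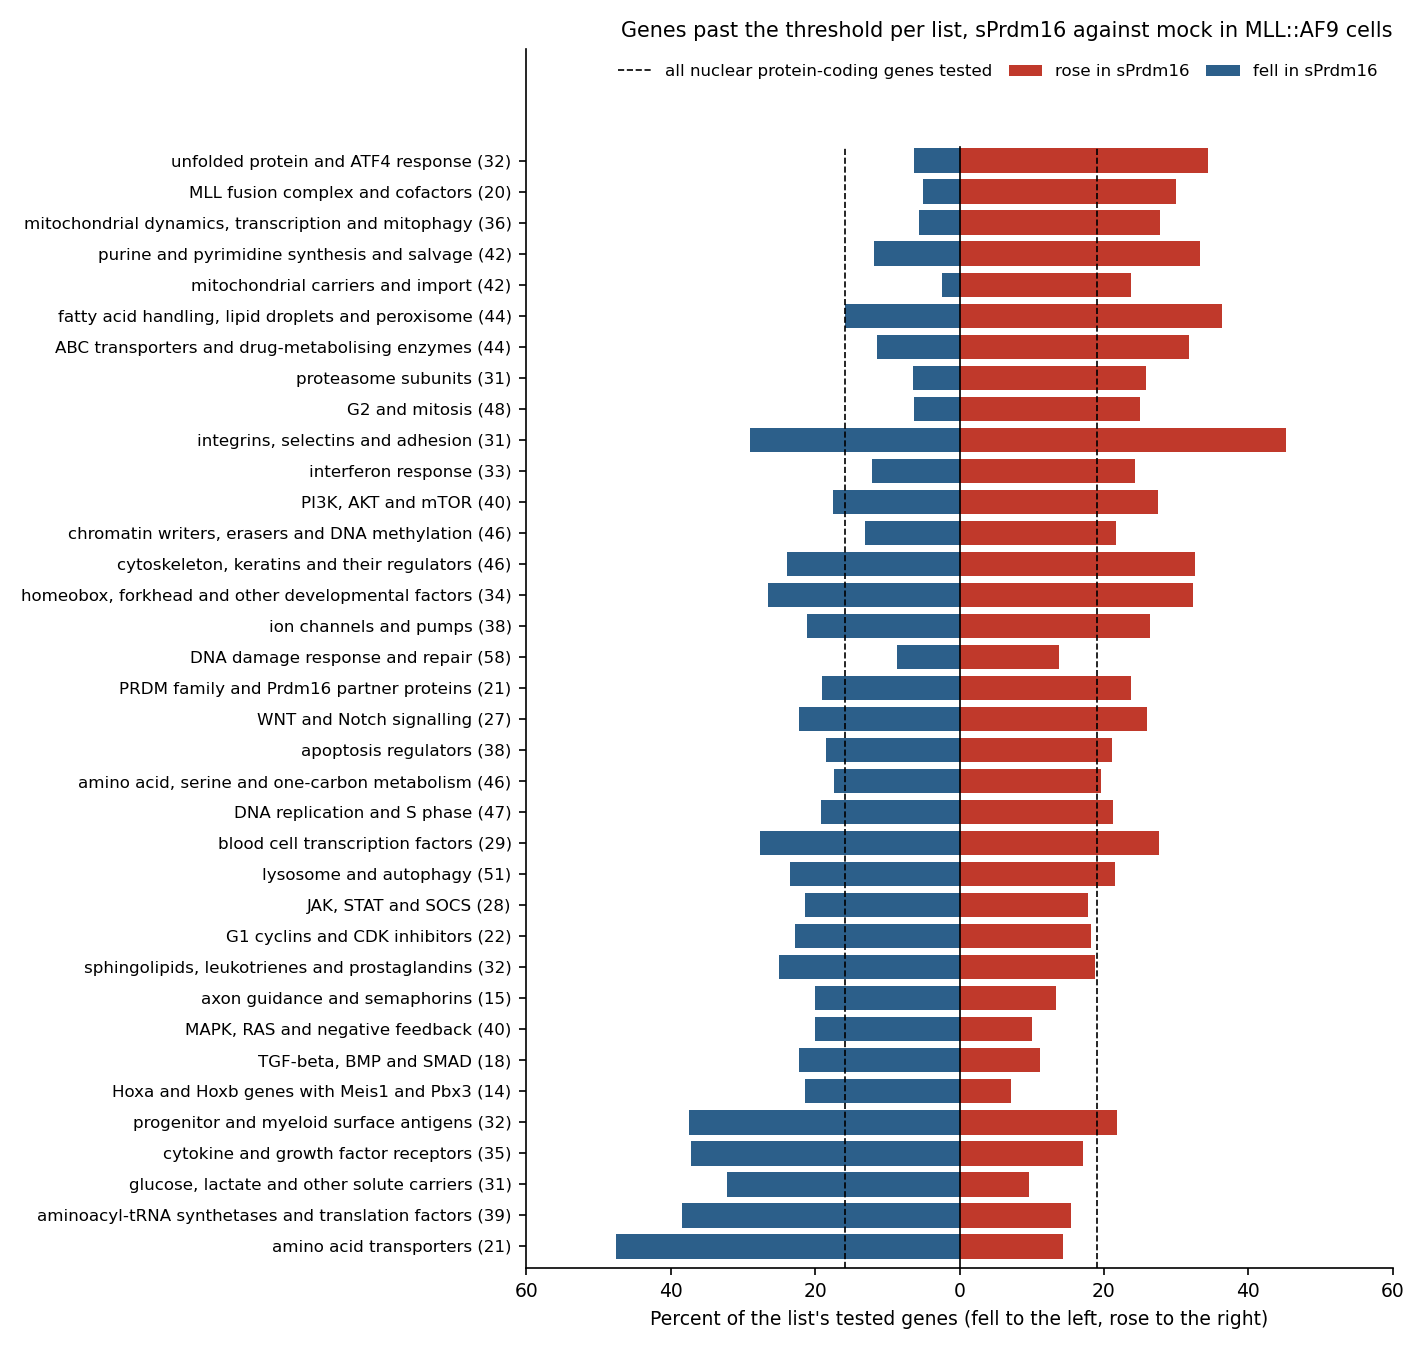
Percent of the tested genes of each list that fell (blue, to the left) or rose (red, to the right) with sPrdm16, with the number tested in brackets after the list's name. Dashed lines mark the shares over all nuclear protein-coding genes, 15.8% fallen and 19.0% risen, and amino acid transporters have the highest share of falls and adhesion genes the highest share of rises.

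Markers of cell types were measured to check the label and to show what moved beside the gene groups above. Over all nuclear protein-coding genes 34.7% were called, with 19.0% risen and 15.8% fallen. The called share was 61.1% of tested neutrophil genes, 84.6% of monocyte and macrophage genes and 85.7% of eosinophil genes. It was 66.7% for megakaryocyte, 60% for dendritic cell and 50% for stromal and endothelial and for B cell genes, from few genes tested. It was 33.3% for stem and progenitor, 25% for mast cell and red cell and 0% for T and NK cell genes, also from few. Genes that define B cells (Pax5), T cells (Cd3e), mast cells (Cpa3, Fcer1a) and tissue macrophages (C1qa) had 0 counts in all 6 libraries. Neutrophil genes summed to 2683 to 2764 CPM with sPrdm16, against 2166 to 2652 CPM with mock, with 6 of 18 tested risen and 5 fallen (median 0.26). Without S100a9 the neutrophil sums overlapped, at 2206 to 2265 CPM with sPrdm16 and 2065 to 2487 CPM with mock. The secondary granule gene Ngp stood at 171, 166 and 171 CPM with sPrdm16, against 354, 339 and 408 CPM with mock (-1.11), as S100a9 rose and Camp and Mmp8 fell. Monocyte and macrophage genes summed to 1083 to 1097 CPM with sPrdm16, against 1199 to 2034 CPM with mock, and 9 of 13 fell and 2 rose (median -1.998). The gap between the sums rested on Fn1: without it they overlapped, at 885 to 898 CPM with sPrdm16 and 796 to 1229 CPM with mock, and mock replicate 1 was the lowest of the 6. The proteoglycan gene Vcan stood at 5.43, 5.28 and 4.30 CPM with sPrdm16, against 49.8, 89.1 and 94.999 CPM with mock (-3.95), and the receptor genes Csf1r and Cd14 stood at -3.11 and -1.998. In each of these 3 genes mock replicate 3 was the highest, at 1.37, 1.67 and 1.46 times the other mock libraries. C1qa, C1qb, C1qc and Marco of this list were at 0 in all 6 libraries. Beside the falls of Ctss, Klf4, Cd74 and Lpl stand those of 9 of the 13 tested markers, Irf8 and Fn1 among them, and the part of monocytic cells in them was not tested.

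Eosinophil genes summed to 10.0 to 11.7 CPM with sPrdm16, against 85.0 to 129.5 CPM with mock, and 6 of 7 fell and 0 rose (median -3.76), with the receptor gene Ccr3 at 0 in all libraries. Epx, eosinophil peroxidase, stood at 1.12, 1.36 and 1.26 CPM with sPrdm16, against 18.1, 15.02 and 18.1 CPM with mock (-3.76, SE 0.17, adjusted p = 1.7e-06), and the granule gene Prg2 at 6.70 ± 1.05 and 63.03 ± 15.4 CPM (-3.23, SD, n = 3 each). Of 4 tested mast cell and basophil genes 1 fell, the histidine decarboxylase gene Hdc, at 42.2 ± 2.25 CPM with sPrdm16 and 107 ± 2.88 CPM with mock (-1.34), and 9 of the 15 on that list had no count in any library. Of 4 tested red cell genes the transferrin receptor gene Tfrc fell by 0.25 on the log2 scale (adjusted p = 0.01), a call that ended without sPrdm16 replicate 1 (0.0585) or replicate 3 (0.0680). Dendritic cell genes summed to 3.61 to 4.76 CPM with sPrdm16 and 6.13 to 16.3 CPM with mock, and of 5 tested 1 rose and 2 fell (median 0.86). Without Cd74 the dendritic sums were 3.34 to 4.41 CPM with sPrdm16 and 2.02 to 2.92 CPM with mock, the opposite order. Whether that order too rests on 1 gene was not tested. B cell genes summed to 1.52 to 1.66 CPM with sPrdm16 and 2.08 to 3.15 CPM with mock, and T and NK cell genes to 3.30 to 4.31 CPM with sPrdm16 and 3.66 to 4.38 CPM with mock. Without Igll1 the B cell sums overlapped, at 0.702 to 1.27 CPM with sPrdm16 and 0.427 to 0.730 CPM with mock. Megakaryocyte genes summed to 99.2 to 104 CPM with sPrdm16 and 89.7 to 115 CPM with mock, with 2 of 6 risen and 2 fallen. The overlap of these sums rested on Nfe2. Without it the megakaryocyte sums were lower with sPrdm16, at 5.87 to 6.201 CPM, against 25.2 to 31.5 CPM with mock.

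Stromal and endothelial genes summed to 144 to 146 CPM with sPrdm16, against 92.0 to 106 CPM with mock, with 2 of 6 risen and 1 fallen. Without Pecam1 these sums overlapped, at 83.5 to 85.8 CPM with sPrdm16 and 76.4 to 92.4 CPM with mock. Cdh5, the cadherin of endothelium, had 174, 222 and 151 counts with sPrdm16 and 0 in each mock library, a level at least 10.7-fold above the mock floor, while the endothelial genes Tek and Emcn had 0 counts in all 6 libraries. Pdgfrb stood at 0.130 ± 0.0521 CPM with sPrdm16 and 2.15 ± 0.681 CPM with mock (-3.98). Of 12 tested stem and progenitor genes 2 rose and 2 fell (median -0.06), and they summed to 860.4 to 866 CPM with sPrdm16 and 860.2 to 922 CPM with mock. Hlf, a factor of blood stem cells, stood at 4.54, 5.52 and 4.20 CPM with sPrdm16, against 1.79, 0.733 and 1.22 CPM with mock (1.92, SE 0.33, adjusted p = 0.0018), with Flt3 as the other rise. Sox4 stood at 22.3 ± 0.940 CPM with sPrdm16 and 46.98 ± 4.49 CPM with mock (-1.08), and the stem cell genes Mecom and Cd34 had at most 1 and 8 counts in any library.

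**Figure D5:**
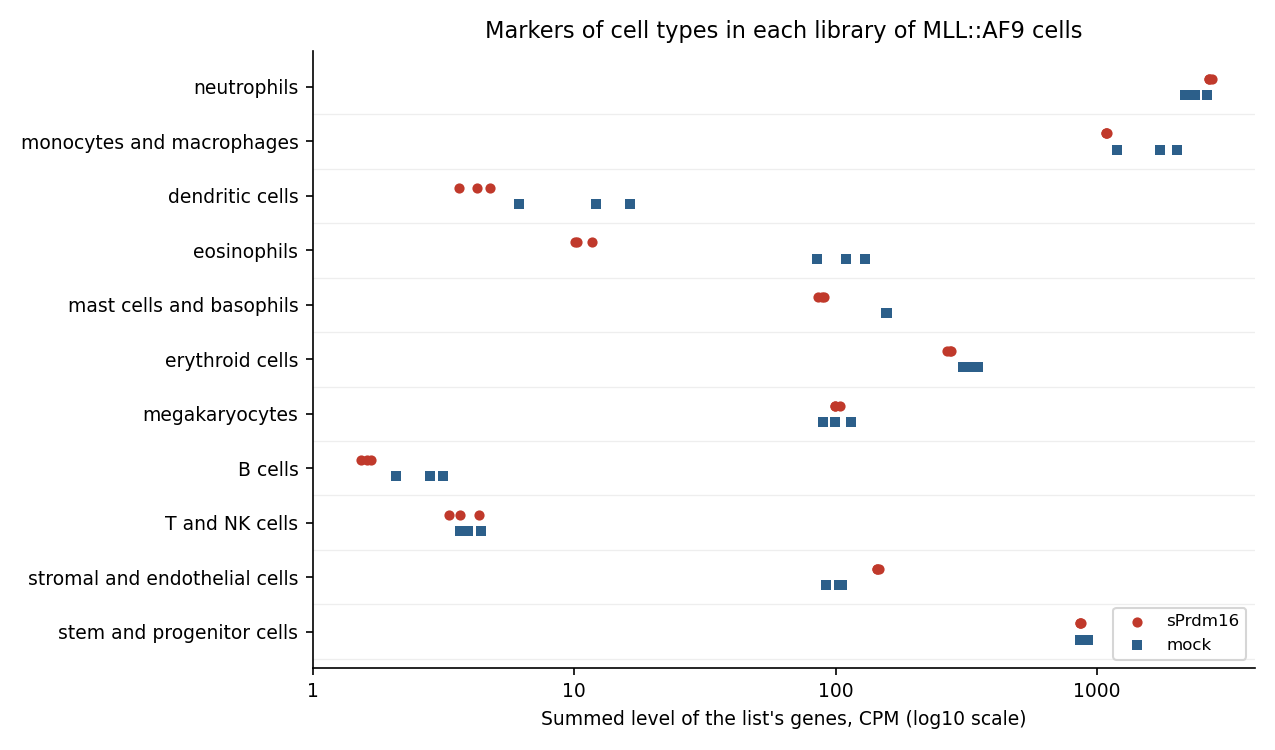
Summed level in CPM (horizontal axis, log10 scale) of the genes of each cell type list in each library, with sPrdm16 libraries as red circles and mock libraries as blue squares. The eosinophil sums lie between 10.0 and 11.7 CPM with sPrdm16 and between 85.0 and 129.5 CPM with mock, and the B, T and NK cell sums stay under 5 CPM in every library.

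The genes next to the 4 largest rises and 4 largest falls were described to show whether a change was shared with its surroundings. Of the 46 distinct neighbours, 3 protein-coding genes on either side of each, 20 were tested and 10 passed the threshold (50%, against 34.7% over all nuclear protein-coding genes), of which 2 changed by 2-fold or more. Krt80, a keratin gene 40881 bases from Krt7, rose by 1.26 (adjusted p = 0.0163). Gm8113, a neighbour of both Ear2 and Ear1, stood at -2.86. Beside Pitx1, Txndc15 stood at 0.31, Macroh2a1 at -0.38 and Tifab at -0.72, and beside Prdm16 the only neighbour tested, Wrap73, stood at 0.56 (adjusted p = 0.0889).

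Genes of other classes followed a different pattern. Of 3035 tested, 303 rose (9.98%) and 731 fell (24.1%), so that over all 14394 genes 2456 rose (17.1%) and 2525 fell (17.5%). At least 4-fold falls made up 5.09% of all genes tested, and in 23.4% every sPrdm16 library was below every mock library. Among them processed pseudogenes rose in 215 and fell in 143 of 968 cases (median 0.17), and long intergenic RNA genes rose in 15 and fell in 41 of 215 (median -0.18). Of structural RNA genes tested, 175 of 188 small nuclear (median -4.36), 169 of 183 small nucleolar (median -3.60), 12 of 16 ribosomal and all 7 mitochondrial tRNA genes fell. These falls go with the lower share of structural RNA in the sPrdm16 libraries. Of miRNA genes, not counted as structural RNA here, 13 of 14 fell. Reads of pseudogenes and their parent genes cannot be told apart with certainty.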

How the data were processed

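RNA was measured in 6 bulk libraries, 3 per group. Expected counts per gene were deposited by the authors without normalization, and the submitters' processing notes name DRAGEN and mm10. The labels' protocols give total RNA from RNeasy columns and Nextera XT libraries. Whether counting used strand is not given in the sources used here. Between 5.19% and 7.03% of a library's values, those at 0 included, were not whole.

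Counts were rounded and tested with edgeR 4.0.16 (filterByExpr at 10 counts, TMM scaling, robust quasi-likelihood fit) in R 4.3.3, with Benjamini-Hochberg adjustment over 14394 genes at 0.05. SE is the log2 fold change over the square root of F. CPM are TMM-scaled. The fit was tested on simulated data. Alternatives used limma 3.58.1, DESeq2 1.42.0, other scalings and filters, libraries thinned to equal nuclear protein-coding counts, a block and left-out libraries. The interaction was fitted over 12 libraries. Tables were summarised with pandas 2.3.3.

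Named genes were the 15 largest rises and falls by log2 fold change and 10 by CPM, at 5 CPM or more in the higher group with groups that do not overlap, and up to 4 genes per list; some of them are not reported here. Members and lists were chosen with earlier results of these data known. Hoxa9 and Meis1 were named with them as list members that were not called. The library totals and the precision they give stand in the results. Sums of marker lists without 1 gene were added after seeing the data.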

Additional observations from a re-analysis of the deposited data

Results flagged for a closer look

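The sPrdm16 effect on 3 of the 4 marking genes differed between MLL::AF9 cells and normal marrow cells, by an interaction term in edgeR over 12 libraries. For Pitx1 the term could not be estimated (SE 15407), because every normal library was at 0 counts. For Prdm16 the term was fitted at 9.22 (SE 1.69, adjusted p = 0.0015), between 4.94 and 9.83 over its alternatives, and its size is not measured because all MLL::AF9 mock libraries are at 0. The call ended with the replicate number as a block (adjusted p = 0.0566, over a range of 4e-07 to 0.0566). Prdm16 was higher with sPrdm16 in both backgrounds, in 3 of 3 libraries each. For Foxc1 the effect in MLL::AF9 cells minus that in normal cells was 3.75 on the log2 scale (SE 0.45, adjusted p = 8.3e-06), between 3.49 and 4.496 over its alternatives. For Cd24a the difference was -1.06 (SE 0.14, adjusted p = 1.7e-05), between -1.13 and -0.96. Cd24a was lower with sPrdm16 in both cell backgrounds, in 3 of 3 libraries each, while Foxc1 had at most 16 counts in any normal library. With sPrdm16, Prdm16 itself stood at 171 to 185 CPM in MLL::AF9 cells and 31.2 to 38.1 CPM in normal cells, scaled over the 12 libraries. The background, the level of Prdm16 and the table a library came from cannot be told apart.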

How the results depend on the processing

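Of 2857 comparisons of 192 named genes with an alternative, 2777 kept their direction and their side of the threshold, 27 lost the call, 8 gained it and 45 reversed, all 45 on the library-total scale. With that scale 10036 nuclear protein-coding genes rose and 179 fell, and over all genes 11489 rose and 607 fell. The log2 fold changes that reversed were Abcc5 at 0.61, Alox5 at 0.13, Atf5 at 0.46, Baz1a at 0.35, Bcl2l1 at 0.38, Btg2 at 0.18, Bub1b at 1.11, Cars at 0.71, Cdkn2c at 0.65, Clspn at 0.98, Cxcr4 at 0.092, Cycs at 0.30, Eif3a at 0.81, Eif4a2 at 0.27, Fanca at 0.68, Gadd45a at 0.79, Hdc at 0.083, Hoxa10 at 0.47, Hoxa9 at 1.16, Il17ra at 0.34, Incenp at 0.84, Itgb2 at 0.65, Lars at 0.73, Map3k1 at 0.51, Msn at 0.49, Ncl at 0.66, Ngp at 0.33, Pik3cb at 0.072, Pik3cd at 0.54, Pola1 at 0.96, Psmd6 at 0.95, Ptpn1 at 0.78, Rplp2 at 0.72, Slc1a5 at 0.93, Slc36a4 at 0.55, Slc3a2 at 0.63, Smurf1 at 0.61, Sox4 at 0.31, Spn at 0.91, Stk11 at 0.76, Tcf4 at 0.31, Tet2 at 0.95, Tfrc at 1.16, Xdh at 0.71 and Zeb2 at 0.47.

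Counts of nuclear protein-coding genes were 2232 rises and 2081 falls with DESeq2, 2027 and 1896 with DESeq2-style size factors in edgeR, 2519 and 2022 with limma-voom, 1663 and 1763 at 5 CPM or more in 3 libraries, 1999 and 2143 with nuclear protein-coding genes alone, and 1600 and 1563 with libraries thinned to equal nuclear protein-coding counts, so that falls outnumbered rises at 5 CPM or more and with nuclear protein-coding genes alone. Of the medians of 48 gene lists, all moved by more than the spread between libraries on the library-total scale, 18 without the filter on low counts, 9 at 5 CPM or more, 5 with thinned libraries and at most 3 under any other setting. Leaving out 1 library at a time gave 1339 to 2879 rises and 1127 to 2275 falls among nuclear protein-coding genes, and 1533 to 3268 rises and 1773 to 3217 falls among all genes. The lowest counts of nuclear protein-coding genes came without 1 sPrdm16 library. Samples with the same replicate number did not deviate together (correlations -0.0319, -0.0106 and 0.0022), so the numbers were taken as names. With the replicate number as a block 1844 nuclear protein-coding genes rose and 1469 fell (2103 and 2088 over all genes), and the interaction values were 3.77 for Foxc1, -1.07 for Cd24a and 9.19 for Prdm16, whose call ended (adjusted p = 0.0566). Depth limits genes near the mock floor of 0.365 CPM, and the cause of all these differences was not tested.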
